A study of Mus musculus with 25 samples.

Results

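The integrin genes Itgae, Itgam, Itgax, Itgal, Itga4, Itga6, Itga8, Itgb2, Itgb7 and Itgav were followed through the conventional dendritic cells (cDC) and the LysoMac, the lysozyme-rich macrophages, of mouse Peyer's patches. The 10 genes were chosen with earlier results of these data known, so their counts are not those of an unselected list. They were taken by symbol from the array annotation, out of 19938 genes that had a probe set row with a single symbol. All 10 had such a row, and 9 could be given a value in all 7 groups. The exception, Itgb2, had values only in the groups that received R848. The 25 arrays came from female wild-type (WT) C57BL/6 mice of 6 to 8 weeks, and each array held RNA of cells pooled from 42 mice. Untreated groups were CD11b+ cDC (5 arrays, sorted as CD11chi MHCII+ SIRPa+ BST2- CD11bint CD8a- CD4-), DN cDC (3 arrays, the same phenotype but CD11b-), CD8a+ cDC (3 arrays, CD11chi MHCII+ SIRPa- BST2- CD11b- CD8a+ CD4-), and LysoMac without or with TIM-4 (3 arrays of either kind, CD11chi MHCIIlo SIRPa+ BST2+ CD4+). Another 3 arrays of CD11b+ cDC and 5 of CD8a+ cDC were made 9 h after gavage with R848, a synthetic ligand of the RNA sensor TLR7, from cells with the phenotypes of their untreated counterparts. Their titles read both R848-treated and steady state. They were taken as treated from the treatment label, the description and the source, and the series design says the same. The labels place CD11b+ cDC, CD8a+ cDC and TIM-4+ LysoMac mainly in the interfollicular T cell zone, TIM-4- LysoMac in the subepithelial dome, and DN cDC in one or both. The series design calls the replicates independent.

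Integrins are receptors made of an alpha and a beta chain that tie a cell to matrix or to other cells, and most chains reach the surface only as a pair. Itgae (CD103) and Itga4 both pair with Itgb7: the first pair binds E-cadherin on epithelium and marks many intestinal cDC, and the second binds MAdCAM-1 on gut vessels. Itga4 pairs with Itgb1 as well. Itgam (CD11b), Itgax (CD11c) and Itgal share the leukocyte chain Itgb2 and bind ligands such as ICAMs, complement fragments and fibrinogen. Itgav pairs with several beta chains, some of which can release active TGF-beta. Itga8 pairs with Itgb1 as a receptor for nephronectin, and Itga6 with Itgb1 or Itgb4 as a receptor for laminins.

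Values are RMA log2 signals, in which a step of 1 is a 2-fold change, and they compare arrays for one gene, not genes with each other. Differences are given with their SE, and adjusted p-values are from limma with Benjamini-Hochberg adjustment over all genes tested. A feature of the deposit bears on every result. The arrays fell into 3 sets with different row orders: the 14 untreated arrays of CD11b+ cDC, DN cDC and LysoMac, the 3 of untreated CD8a+ cDC, and the 8 R848 arrays. Rows of both untreated sets were matched to the R848 arrays by order and level, and a gene's identity in them rests on that match. Any comparison that crosses sets (R848 with untreated, or untreated CD8a+ cDC with another group) cannot be told apart from a difference between sets. Over all genes tested, the median difference was -0.19 for CD8a+ against CD11b+ cDC, untreated, 0.17 for LysoMac against CD8a+ cDC and 0.19 for R848 against untreated CD8a+ cDC, so differences across sets are read against these shifts. Array medians lay between 4.29 and 4.60. Since the arrays measure bulk RNA, fewer cells of a type and less RNA per cell cannot be told apart.

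Most markers followed the labels. Xcr1, a chemokine receptor of CD8a+ cDC, read 10.84 to 10.95 in untreated CD8a+ cDC, 8.39 to 8.82 in CD8a+ cDC after R848 and 4.26 or less elsewhere. Mertk, a macrophage receptor for dying cells, read 8.39 to 8.93 in LysoMac and 4.59 or less in every cDC array, and Flt3, the growth factor receptor of cDC, read 5.64 or less in LysoMac and 9.56 or more in cDC. Against the labels, the macrophage receptor Fcgr1 was no higher in LysoMac (4.13 to 4.41) than in DN cDC (4.94 to 5.24), and Timd4, at 10.76 to 10.80 in TIM-4+ and 5.15 to 6.56 in TIM-4- LysoMac, read 7.08 to 8.59 in untreated CD11b+ cDC. Of 4 markers of CD8a+ cDC with values in all groups, Xcr1, Cadm1 and Irf8 were higher there than in CD11b+ cDC, untreated. Batf3 was lower (-0.51 ± 0.14, adjusted p = 0.00621), across sets. Markers of other cells moved with some groups. The mean level of the 8 of 11 stromal and endothelial markers with values in all groups was 5.39 to 5.89 in DN cDC and 3.61 to 4.66 in the other untreated groups. The mean of 2 of 5 B cell markers was 6.03 to 8.26 in R848 arrays and 4.35 to 5.81 in untreated ones. Among CD8a+ cDC after R848, Lyz2 (lysozyme) read 10.69, 10.31, 10.75, 7.47 and 5.10 in replicates 1 to 5, so the last 2 stood apart. Leaving out both changed no call of a member.

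**Figure D1:**
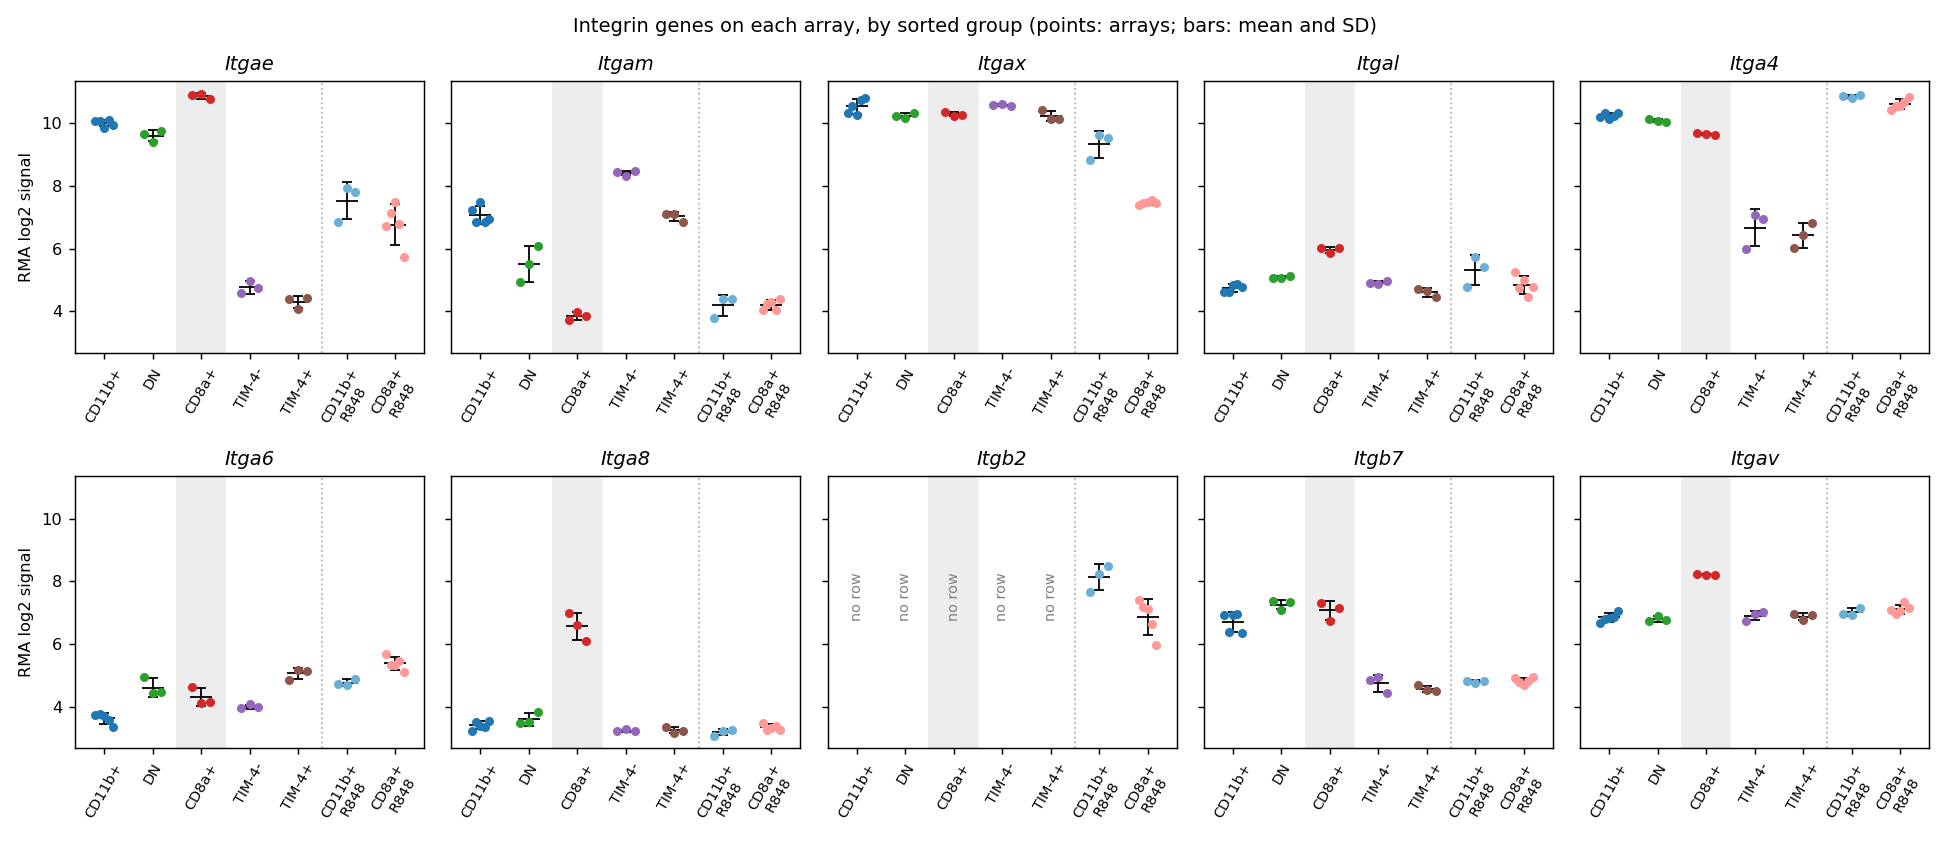
RMA log2 signal (y axis) of the 10 integrin genes on each array, by sorted group (x axis); points are arrays, bars are group means with SD. The grey band marks the untreated CD8a+ arrays and the dotted line separates the R848 arrays, which are sets of their own; Itgae, Itga4 and Itgb7 are low in both LysoMac groups, Itga8 is high in 1 group, and Itgb2 has values in the R848 groups alone.

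CD103 had the widest span of group means among the 10 genes and was low in macrophages. Itgae read 10.09, 10.07, 9.86, 10.11 and 9.97 in untreated CD11b+ cDC and 9.67, 9.40 and 9.75 in DN cDC. In TIM-4- LysoMac it read 4.57, 4.97 and 4.75, and in TIM-4+ LysoMac 4.40, 4.09 and 4.41. Every LysoMac array was thus far below every untreated cDC array and close to the array medians. LysoMac differed from CD11b+ and DN cDC by -5.28 ± 0.20 (SE, adjusted p = 1.89e-15). Untreated CD8a+ cDC had the highest readings, 10.90, 10.94 and 10.78, above CD11b+ cDC by 0.86 ± 0.27 (adjusted p = 0.0119), across sets. DN cDC lay below CD11b+ cDC on every array, but the difference of -0.41 ± 0.27 did not pass (adjusted p = 0.455). TIM-4+ and TIM-4- LysoMac did not overlap either, and the difference of -0.46 ± 0.30 did not pass (adjusted p = 1.00).

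Its partner, the beta7 chain, was divided in the same way. Itgb7 read 6.92, 6.37, 6.92, 6.95 and 6.36 in untreated CD11b+ cDC, 7.36, 7.08 and 7.33 in DN cDC and 7.31, 6.73 and 7.16 in CD8a+ cDC. It read 4.85, 4.95 and 4.43 in TIM-4- LysoMac and 4.68, 4.53 and 4.51 in TIM-4+ LysoMac. LysoMac and untreated cDC arrays did not overlap, and LysoMac differed from CD11b+ and DN cDC by -2.32 ± 0.11 (adjusted p = 1.62e-13). Within cDC, DN exceeded CD11b+ cDC by 0.56 ± 0.15 (adjusted p = 0.0374), with no overlap. That call was lost without CD11b+ cDC replicate 2 or 5 (adjusted p = 0.0702 and 0.105), without DN cDC replicate 1 or 3 (adjusted p = 0.167 and 0.142) and with the arrays shifted to a common median (adjusted p = 0.0617). Nor did the DN difference pass with the replicate number as a block (adjusted p = 0.0933). Untreated CD8a+ cDC overlapped with both other cDC groups. Their difference from CD11b+ cDC was 0.37 ± 0.15 (adjusted p = 0.0506), or 0.61 with a common median (adjusted p = 0.00278).

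Itga4, the other alpha partner of Itgb7, was also lower in macrophages. It read 10.21, 10.34, 10.15, 10.25 and 10.33 in untreated CD11b+ cDC, 10.15, 10.06 and 10.06 in DN cDC and 9.71, 9.68 and 9.64 in CD8a+ cDC. TIM-4- LysoMac read 5.99, 7.07 and 6.96 and TIM-4+ LysoMac 6.01, 6.43 and 6.83. The LysoMac groups overlapped with each other and lay below all cDC, by -3.62 ± 0.13 from CD11b+ and DN cDC (adjusted p = 1.18e-15). Untreated CD8a+ cDC differed from CD11b+ cDC by -0.58 ± 0.18 (adjusted p = 0.0108), but by -0.33 with a common median (adjusted p = 0.168). The Itga4 rows of the untreated sets lie only 2 rows from a gap in the match, so their identity is less certain than that of Itgae.

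Over 9 measured members, 2 were higher and 4 lower in LysoMac than in CD11b+ and DN cDC, where 30.5% of the 16393 genes tested were called. The members' median difference was -0.15, against 0.00 over all genes. Against CD8a+ cDC, 1 member was higher and 6 lower, beside 54.3% of 13963 genes called. All 7 of those differed at least 2-fold, beside 11.4% of genes. Itgae differed there by -6.34 ± 0.26, Itga4 by -3.13 ± 0.17 and Itgb7 by -2.41 ± 0.15 (adjusted p = 7.19e-15, 1.37e-12 and 7.25e-12). The median over all genes was 0.17 in this comparison, which crosses sets. T cells carry these chains too. The mean of 3 of 6 T cell markers was 6.14 to 7.42 in CD11b+ and DN cDC and 5.20 to 6.30 in LysoMac. In untreated CD8a+ cDC, a set of its own, it was 4.46 at the median array. The part of T cells in the levels of CD11b+ and DN cDC was not tested.

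**Figure D2:**
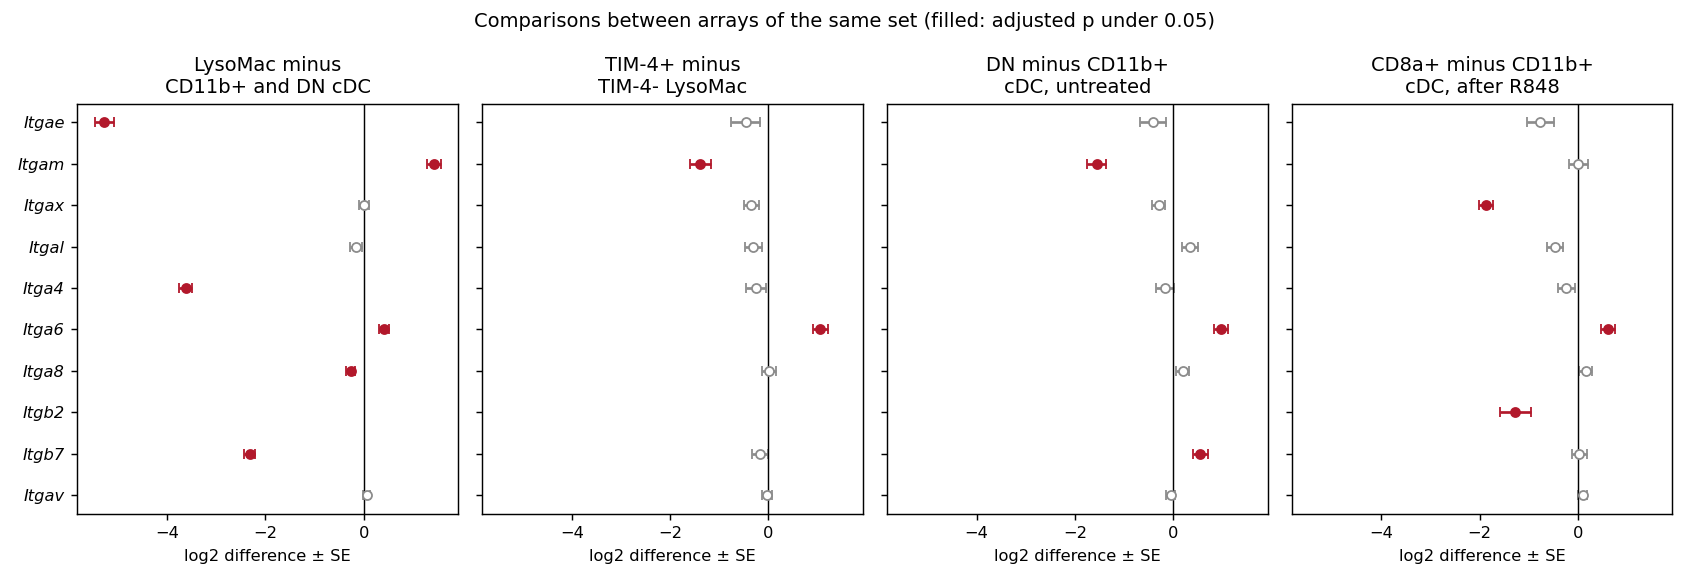
Log2 differences with SE (x axis) of the integrin genes (y axis) in the 4 comparisons made between arrays of one set; filled points passed an adjusted p of 0.05 in limma and open points did not. Itgae, Itga4 and Itgb7 lie far to the left in LysoMac, and Itgb2 has a value in the R848 comparison alone. Itgam is higher in LysoMac than in the mean of CD11b+ and DN cDC. It is lower in TIM-4+ than in TIM-4- LysoMac and in DN than in CD11b+ cDC.

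After R848, Itgae and Itgb7 were lower in both cDC subsets, and Itga4 was higher. Itgb7 read 4.82, 4.74 and 4.81 in CD11b+ cDC and 4.90, 4.77, 4.69, 4.82 and 4.94 in CD8a+ cDC, ranges that overlap with TIM-4- LysoMac. The differences from untreated cells were -1.91 ± 0.15 in CD11b+ and -2.24 ± 0.15 in CD8a+ cDC (adjusted p = 3.29e-09 and 8.77e-11). Itgae read 6.85, 7.94 and 7.80 in CD11b+ cDC and 6.72, 7.14, 7.49, 6.78 and 5.72 in CD8a+ cDC. The R848 groups overlapped with each other and lay between untreated cDC and LysoMac, clear of both. Itgae differed from untreated by -2.49 ± 0.27 in CD11b+ and -4.10 ± 0.27 in CD8a+ cDC (adjusted p = 2.48e-07 and 4.98e-11). Itga4 had its highest readings after R848: 10.86, 10.80 and 10.90 in CD11b+ cDC and 10.44, 10.56, 10.56, 10.68 and 10.86 in CD8a+ cDC. These exceeded untreated cells by 0.60 ± 0.18 and 0.94 ± 0.18 (adjusted p = 0.0102 and 1.58e-04), with no overlap. The B cell markers given above were higher in both R848 groups, and the T cell marker mean was 4.76 to 4.91 in CD11b+ and 4.89 to 6.67 in CD8a+ cDC after R848. Their part was not tested.

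**Figure D3:**
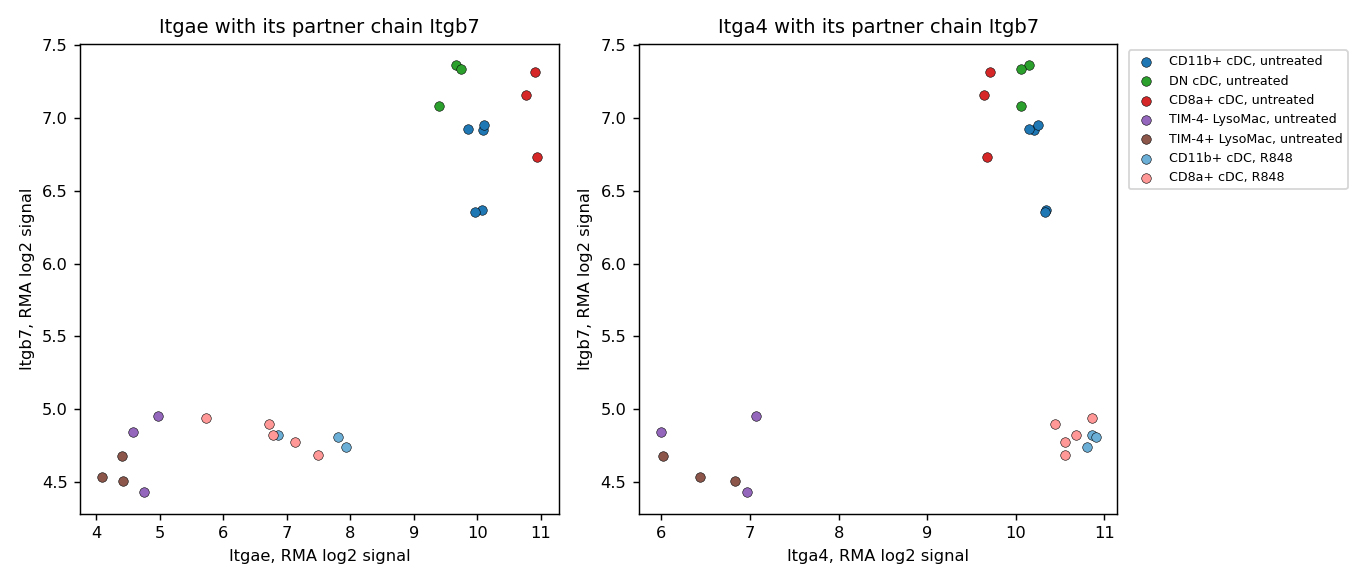
RMA log2 signal of Itgae and Itga4 plotted with that of Itgb7, 1 point per array, coloured by group. Untreated cDC are high in all 3 chains and LysoMac low in all 3; cDC after R848 keep a high Itga4 with an Itgb7 level near that of LysoMac.

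Across the 14 untreated arrays of one set, Itgb7 had Pearson r = 0.957 with Itgae and 0.943 with Itga4, values that describe the gap between cDC and LysoMac and carry no test. Over all 25 arrays r was 0.883 with Itgae and 0.364 with Itga4, and over the 8 R848 arrays -0.800 and 0.144. For Itga4 with Itgb1, its other partner, r was 0.742 over the 11 arrays with both and -0.594 over the R848 arrays. A promoter stretch of Itgb7 is shown because this chain moved from its cDC level to its LysoMac level. It runs from 250 bases before to 50 after a RefSeq start (GRCm38.p6, chr15:102231886-102232185, minus strand). This start lies inside the gene, whose listed span is 102215994 to 102233405, and the stretch before its outer end was not searched. Capitals mark the letters GAGGAA or their reverse complement TTCCTC, a core that the myeloid factor PU.1 can bind, searched on both strands. It is printed 5′ to 3′ in the direction of the gene:
Itgb7: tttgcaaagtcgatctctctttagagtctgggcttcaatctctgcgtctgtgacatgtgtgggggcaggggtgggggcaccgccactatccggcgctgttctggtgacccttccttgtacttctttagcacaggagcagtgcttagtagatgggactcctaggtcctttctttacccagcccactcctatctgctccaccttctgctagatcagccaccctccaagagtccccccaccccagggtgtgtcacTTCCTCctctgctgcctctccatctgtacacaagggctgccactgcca
A copy lies 2 bases after that inner start. Of 32851 mouse promoters of this length, 28.3% hold such a core, and a match is a description, not a bound site.

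CD11b was highest in TIM-4- LysoMac and lowest in CD8a+ cDC before treatment. Itgam read 8.44, 8.34 and 8.48 in TIM-4- LysoMac, 7.12, 7.12 and 6.85 in TIM-4+ LysoMac and 7.24, 6.86, 7.49, 6.85 and 6.94 in untreated CD11b+ cDC. It read 4.95, 5.50 and 6.09 in DN cDC and 3.72, 3.99 and 3.87 in untreated CD8a+ cDC. TIM-4+ LysoMac and CD11b+ cDC overlapped, and the other neighbours in this order did not. CD11b itself was part of the cDC gate, so differences among the cDC are not independent of the sort: DN differed from CD11b+ cDC by -1.56 ± 0.19 and CD8a+ by -3.21 ± 0.19 (adjusted p = 1.23e-05 and 1.73e-11). DN arrays, though sorted as CD11b-, still exceeded those of CD8a+ cDC. LysoMac, whose phenotype names no CD11b, exceeded CD11b+ and DN cDC by 1.43 ± 0.14 and CD8a+ cDC by 3.86 ± 0.19 (adjusted p = 3.69e-08 and 1.35e-13). The cDC of both comparisons were gated on CD11b, so these differences are not independent of the sort either. TIM-4+ LysoMac (mean 7.03) did not exceed CD11b+ cDC (mean 7.07).

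After R848 the gene read 3.80, 4.40 and 4.38 in cells labelled CD11b+ and 4.06, 4.24, 4.30, 4.05 and 4.40 in CD8a+ cDC. The groups overlapped and differed by 0.01 ± 0.19 (adjusted p = 0.988), within one array set. The libraries labelled CD11b+ thus read no higher for Itgam than those of the CD11b- cells, and differed from untreated CD11b+ cDC by -2.88 ± 0.19 (adjusted p = 2.78e-10). Sirpa, another receptor of the gate, did follow the label, at 9.50 to 9.87 against 5.47 to 7.07 in CD8a+ cDC after R848. After R848, the mean of 4 of 6 SIRPa+ cDC markers was 5.75 to 6.03 in CD11b+ and 4.53 to 5.09 in CD8a+ cDC. That mean was 7.34 to 7.96 in untreated CD11b+ cDC and 6.13 to 6.52 in LysoMac, across sets. In CD8a+ cDC the Itgam difference from untreated was 0.35 ± 0.19 (adjusted p = 0.125).

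The TIM-4 groups of LysoMac differed in 2 of 9 members, 1 in either direction, beside 0.403% of 16393 genes called. Itgam was lower in TIM-4+ cells, by -1.39 ± 0.21 (adjusted p = 0.00143), with no overlap, and Itga6 was higher, as given with that gene. With the replicate number as a block, the Itgam difference did not pass (adjusted p = 0.0515). Neutrophils also carry CD11b. The mean of 3 of 5 neutrophil markers was 5.56 to 6.71 in TIM-4- and 5.27 to 5.72 in TIM-4+ LysoMac. Of the list, S100a8 read 5.43 to 8.40 in TIM-4- and from 4.35 in TIM-4+ LysoMac, with overlap, Csf3r 8.57 to 8.90 and 8.35 to 8.67 and Mpo 3.78 to 4.14 and 3.85 to 4.10, and Ly6g, a defining marker, 2.66 to 2.82 and 2.78 to 2.81. Their part in the Itgam difference was not tested.

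CD11c, the marker on which all these cells were enriched, was at like levels before treatment and at unequal ones after it. Itgax read 10.34, 10.57, 10.26, 10.75 and 10.80 in CD11b+ cDC, 10.23, 10.19 and 10.33 in DN cDC and 10.36, 10.24 and 10.26 in CD8a+ cDC. LysoMac read 10.58, 10.62 and 10.55 without TIM-4 and 10.42, 10.16 and 10.13 with it. The untreated groups overlapped with their neighbours in order of mean, and LysoMac differed from CD11b+ and DN cDC by 0.01 ± 0.10 (adjusted p = 0.946). After R848 it read 8.84, 9.63 and 9.53 in CD11b+ and 7.38, 7.47, 7.49, 7.57 and 7.45 in CD8a+ cDC, below every untreated array although these cells too were sorted as CD11chi. The difference from untreated was -1.21 ± 0.14 in CD11b+ and -2.82 ± 0.14 in CD8a+ cDC (adjusted p = 6.95e-07 and 5.14e-13). Inside the R848 set CD8a+ differed from CD11b+ cDC by -1.86 ± 0.14 (adjusted p = 3.37e-09), with no overlap.

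Itgb2, the beta chain shared by CD11b and CD11c, read 7.67, 8.24 and 8.49 in CD11b+ and 7.40, 7.16, 7.13, 6.63 and 5.96 in CD8a+ cDC after R848. The ranges did not overlap, and the difference was -1.27 ± 0.32 (adjusted p = 0.0285). It did not pass without CD11b+ cDC replicate 2 or 3 (-1.22 and -1.10, adjusted p = 0.105 and 0.126) or CD8a+ cDC replicate 4 (-1.22, adjusted p = 0.0606). The lowest readings came from the replicates with low Lyz2, and without both of those the difference was -0.90 (adjusted p = 0.0327).

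Itgal, the alpha chain of LFA-1, which binds ICAM-1, was highest in untreated CD8a+ cDC. It read 5.86 to 6.01 there, 5.05 to 5.13 in DN cDC, 4.60 to 4.86 in CD11b+ cDC and 4.45 to 4.96 in LysoMac. CD8a+ cDC stood clear of all other groups, by 1.22 ± 0.16 over CD11b+ cDC (adjusted p = 3.45e-06). After R848 it read 4.78 to 5.73 in CD11b+ and 4.45 to 5.25 in CD8a+ cDC, which overlapped. It was higher than untreated by 0.57 ± 0.16 in CD11b+ cDC (adjusted p = 0.00755), a call lost without R848 replicate 2 (0.36, adjusted p = 0.0961) and in a fit of the CD11b+ arrays alone (adjusted p = 0.0519). In CD8a+ cDC the difference was -1.12 ± 0.16 (adjusted p = 7.01e-06).

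Itgam and Itgax are neighbours on chromosome 7 and share a beta partner, yet their levels parted in LysoMac and in DN cDC. Their RefSeq promoters (GRCm38.p6, plus strand, chr7:128062390-128062689 and chr7:128129300-128129599) are printed as above for that contrast:
Itgam: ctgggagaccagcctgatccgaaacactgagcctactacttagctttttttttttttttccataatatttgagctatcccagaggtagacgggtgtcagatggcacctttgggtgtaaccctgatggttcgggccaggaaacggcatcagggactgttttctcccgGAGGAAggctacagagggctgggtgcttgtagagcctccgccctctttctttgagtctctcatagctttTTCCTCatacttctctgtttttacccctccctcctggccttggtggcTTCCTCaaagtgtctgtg
Itgax: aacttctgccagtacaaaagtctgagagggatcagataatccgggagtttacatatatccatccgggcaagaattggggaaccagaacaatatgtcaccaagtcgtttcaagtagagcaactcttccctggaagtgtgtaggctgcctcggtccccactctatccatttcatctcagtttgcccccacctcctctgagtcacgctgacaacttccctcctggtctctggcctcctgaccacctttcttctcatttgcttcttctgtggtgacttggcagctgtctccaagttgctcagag
Itgam holds the PU.1-type core at -84, -15 and 32 relative to the start (position 0), and these letters are not in the Itgax window. A RUNX-type match, TGTGGT or ACCACA on both strands, lies at 13 in Itgax and is in 16.8% of all promoters. Of the 10 members, 6 had a promoter in the RefSeq table.

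Itga8 was high in a single group. It read 6.97, 6.60 and 6.11 in untreated CD8a+ cDC and 3.07 to 3.83 on the arrays of all other groups, below the array medians. The difference from CD11b+ cDC was 3.15 ± 0.13 (adjusted p = 5.69e-14). No measure of background was used here, so with 1 side at the bottom of the scale this is a difference of signals and not an exact fold. After R848 the CD8a+ cells read 3.49, 3.24, 3.33, 3.39 and 3.26, a difference of -3.22 ± 0.13 from untreated (adjusted p = 2.17e-14). Within the R848 set they overlapped with CD11b+ cDC (0.16 ± 0.13, adjusted p = 0.582). The contrast rests on the 3 arrays that form a set of their own. LysoMac differed from CD11b+ and DN cDC by -0.26 ± 0.10 (adjusted p = 0.0451). This call, among levels at the bottom of the scale, was lost in 9 of 14 cases with 1 array left out: CD11b+ cDC replicates 2, 3 and 5, DN cDC replicate 3, TIM-4- LysoMac replicates 1, 2 and 3 and TIM-4+ LysoMac replicates 2 and 3. Without DN cDC replicate 3 it was -0.20 (adjusted p = 0.150).

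Itgav had a like pattern at a higher level. It read 8.24, 8.21 and 8.19 in untreated CD8a+ cDC and 6.67 to 7.33 elsewhere, where neighbouring groups overlapped. CD8a+ exceeded CD11b+ cDC by 1.36 ± 0.09 (adjusted p = 1.67e-10) and differed by -1.10 ± 0.09 after R848 (adjusted p = 3.63e-09). Within the R848 set the subsets overlapped (0.10 ± 0.09, adjusted p = 0.640). In CD11b+ cDC the R848 difference was 0.16 ± 0.09 (adjusted p = 0.182), or 0.33 with cyclic loess (adjusted p = 0.00519). Its partner Itgb8, with which it activates TGF-beta, was higher in CD8a+ than in CD11b+ cDC after R848 by 0.84 ± 0.21 (adjusted p = 0.00883). That call was lost without CD11b+ R848 replicate 2 (0.50, adjusted p = 0.108) and without CD8a+ R848 replicates 4 and 5 together (0.70, adjusted p = 0.0672). Nor did the Itgb8 difference pass in a fit of the R848 arrays alone (adjusted p = 0.128).

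Itga6, the laminin receptor chain, was low throughout and differed between closely related groups. It read 3.74, 3.75, 3.71, 3.59 and 3.34 in CD11b+ cDC, the lowest group, and 4.94, 4.42 and 4.46 in DN cDC. TIM-4- LysoMac read 3.95, 4.07 and 3.98 and TIM-4+ LysoMac 4.86, 5.18 and 5.13. Neither pair overlapped. DN exceeded CD11b+ cDC by 0.98 ± 0.14 (adjusted p = 1.09e-04) and TIM-4+ exceeded TIM-4- LysoMac by 1.06 ± 0.16 (adjusted p = 0.00109). With the replicate number as a block, neither difference passed (adjusted p = 0.0533 and 0.0800). Endothelium carries Itga6, and 8 of 9 stromal and endothelial markers were higher in DN than in CD11b+ cDC and 1 of 9 in TIM-4+ LysoMac. The mean of the 8 with values in all groups was 4.37 to 4.66 in TIM-4+ and 4.14 to 4.20 in TIM-4- LysoMac, which did not overlap. Cdh5, an endothelial cadherin, read 4.36 to 5.62 and 4.08 to 4.62. Their part was not tested.

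With R848, Itga6 was higher in both subsets. It read 4.72, 4.67 and 4.89 in CD11b+ and 5.69, 5.34, 5.32, 5.46 and 5.10 in CD8a+ cDC, against 4.63, 4.12 and 4.15 in untreated CD8a+ cDC. The difference from untreated was 1.14 ± 0.14 and 1.08 ± 0.14 (adjusted p = 2.16e-06 and 2.52e-06). Within the R848 set CD8a+ exceeded CD11b+ cDC by 0.62 ± 0.14 (adjusted p = 0.00448), with no overlap. Its partner Itgb1, the most widely shared beta chain, read 10.30 to 10.36 in CD8a+ and 9.66 to 9.92 in CD11b+ cDC after R848 and 9.25 to 9.32 in untreated CD8a+ cDC. It was higher in CD8a+ cDC by 0.51 ± 0.07 over CD11b+ cDC and by 1.04 ± 0.07 over untreated cells (adjusted p = 4.58e-04 and 2.68e-07).

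The remaining counts set the members beside all genes. Between DN and CD11b+ cDC, 2 members were higher and 1 lower, where 4.12% of 16393 genes were called. For untreated CD8a+ against CD11b+ cDC, 5 of 9 were higher and 2 lower, beside 46.7% of genes, and 4 were called with at least a 2-fold difference, beside 6.29%. With R848, 3 rose and 4 fell in CD11b+ cDC (39.5% of genes called), 5 of them at least 2-fold (6.94%). In CD8a+ cDC 2 rose and 6 fell (55.2%), 7 of them at least 2-fold (9.77%). The members' median was -0.22 in CD11b+ and -1.12 in CD8a+ cDC, against -0.03 and 0.19 over all genes. Within the R848 set 1 of 10 was higher and 2 lower in CD8a+ cDC, beside 12.5% of 19938 genes.

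That last count became 5 without CD11b+ R848 replicate 1, when Itgae (-1.10, adjusted p = 0.00833) and Itgal (-0.73, adjusted p = 0.00123) also passed. With all arrays they did not (-0.76 ± 0.27, adjusted p = 0.0671, and -0.47 ± 0.16, adjusted p = 0.0598). Itgae was also called without CD8a+ R848 replicate 2 or 3 (adjusted p = 0.0495 and 0.0143), and Itgal without CD8a+ R848 replicate 1 (adjusted p = 0.0152).

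**Figure D4:**
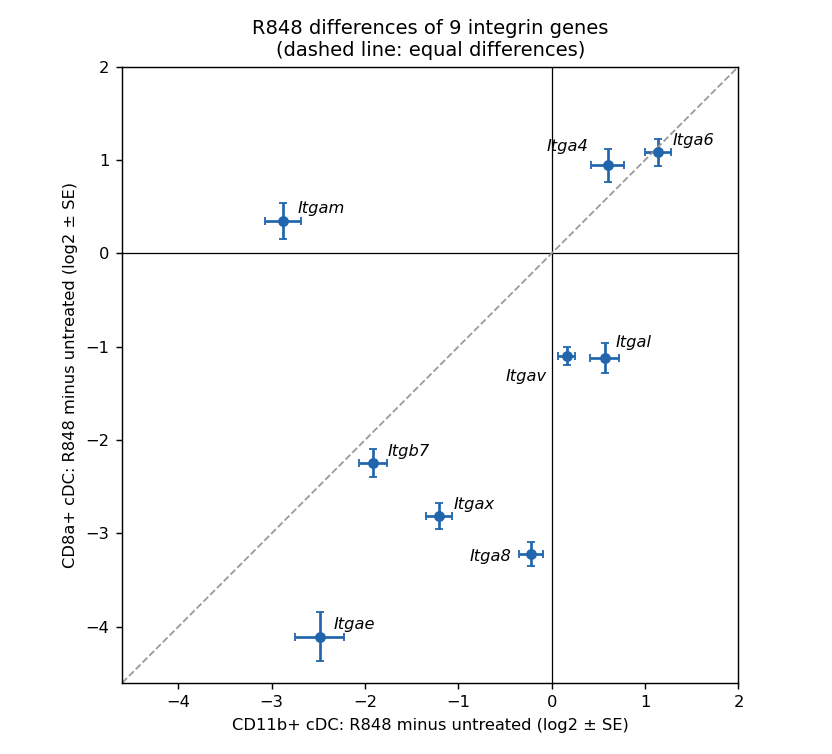
R848 minus untreated log2 difference with SE of 9 integrin genes in CD11b+ cDC (x axis) and CD8a+ cDC (y axis); the dashed line marks equal differences. Itga4, Itga6 and Itgb7 lie close to the line, Itgam lies far above it, and Itga8, Itgae, Itgal, Itgav and Itgax lie below it; each difference crosses array sets.

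The R848 differences of both subsets were also set against each other, as the value in CD8a+ minus that in CD11b+ cDC. It was negative for 5 of 9 members and positive for 1, Itgam, beside 32.1% of 13963 genes called. All 6 were at least 2-fold, beside 6.66% of genes. The value was -2.99 ± 0.18 for Itga8, -1.68 ± 0.23 for Itgal and -1.62 ± 0.37 for Itgae (adjusted p = 3.73e-10, 1.43e-05 and 0.00272). It was -1.61 ± 0.20 for Itgax, -1.26 ± 0.13 for Itgav and 3.23 ± 0.27 for Itgam (adjusted p = 4.95e-06, 6.30e-07 and 2.50e-08). The negative R848 differences of Itgae and Itgax were thus larger in CD8a+ cDC. Itgam was called lower after R848 in CD11b+ cDC alone. Untreated CD8a+ cDC, gated as CD11b-, already read 3.72 to 3.99 for it, below the array medians. Untreated CD11b+ cDC read 3.23 to 3.55 for Itga8, also below them. For these genes the contrast is not independent of the starting level, nor that of Itgam of the sort. Itgb7 (-0.33 ± 0.21), Itga4 (0.34 ± 0.25) and Itga6 (-0.06 ± 0.20) did not pass (adjusted p = 0.236, 0.299 and 0.851). All 3 array sets enter this contrast, whose median over all genes was 0.21.

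Ligands and other chains were counted from lists, and those named below as higher, lower, risen or fallen passed an adjusted p of 0.05. Among 12 integrin ligands measured, 3 were higher and 7 lower in LysoMac than in CD11b+ and DN cDC, with a median of -0.59 against 0.00 over all genes, of which 14.1% were higher and 16.4% lower. Vcam1, a ligand of Itga4 integrins, read 10.12 to 10.70 in LysoMac and 5.20 to 5.85 in those cDC, a difference of 4.85 ± 0.10, so that ligand was high where Itga4 was low. F11r, a junction protein that binds LFA-1 (-3.50 ± 0.18), Cdh1, the E-cadherin bound by CD103 (-2.44 ± 0.19), and Cd47, a membrane partner of integrins (-1.17 ± 0.07), were lower in LysoMac. Cdh1 is also one of 6 epithelial markers, of which 2 were lower in LysoMac. The mean of 5 of them was 4.69 to 6.47 in CD11b+ cDC, 6.13 to 7.01 in DN cDC and 4.46 to 5.30 in LysoMac, and their part was not tested. Of 10 other integrin chains 5 were lower and 0 higher, with a median of -0.19, beside the same shares of all genes: Itga5, a fibronectin receptor chain, differed by -1.12 ± 0.15, Itga1, a collagen receptor chain, by -0.53 ± 0.12 and Itgb3 by -0.28 ± 0.06. Itgad (-0.58 ± 0.09) was not called with the mean over its transcript clusters (-0.09), and Itga2b (-0.23 ± 0.08) not without DN cDC replicate 2, TIM-4- LysoMac replicate 1 or 2, or TIM-4+ LysoMac replicate 3. Against untreated CD8a+ cDC, Itga1 (-1.34 ± 0.16) and Itga3 (-0.73 ± 0.15) were lower in LysoMac. There Itga2b (0.25 ± 0.10), Itgad (0.34 ± 0.12) and Itgb6 (0.21 ± 0.08) were called higher as deposited but not with a common median, where Itga2b and Itgb6 were below 0, and not without untreated CD8a+ cDC replicate 1 or 2. Itga2b was also lost without TIM-4- LysoMac replicate 3 or TIM-4+ LysoMac replicate 1 or 2, and Itgb6 without replicate 3 of either LysoMac group. Between the TIM-4 groups Madcam1, which binds the Itga4 and Itgb7 pair, was the 1 ligand called, higher in TIM-4+ LysoMac by 1.19 ± 0.15 (adjusted p = 1.36e-04), but not in a fit of the LysoMac arrays alone (adjusted p = 0.0702).

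In DN against CD11b+ cDC, 4 of 12 ligands were higher, beside 2.5% of all genes: the matrix genes Nid1 (1.75 ± 0.20), Fn1 (1.65 ± 0.09) and Tnc (1.46 ± 0.09), and Madcam1 (0.61 ± 0.14, lost without DN cDC replicate 2). Of the other chains Itga1 was higher by 1.30 ± 0.16 and Itgb3 by 0.35 ± 0.08, the latter lost without DN cDC replicate 2. Stromal markers, which were high in the same arrays, include Madcam1. Their part was not tested. In untreated CD8a+ against CD11b+ cDC, Itga1 (1.46 ± 0.16) and Itga3 (0.75 ± 0.15) were higher and Itgad (-0.84 ± 0.12) and Itga2b (-0.53 ± 0.10) lower of 7 chains, while 1 of 12 ligands was higher and 6 lower, F11r (-3.08 ± 0.23) and Cdh1 (-2.37 ± 0.25) among them. Over all genes 8.13% were higher and 38.5% lower, and the share of calls that were higher went from 17.4% to 60.4% with a common median, so the split of the ligands is not read as theirs.

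With R848, 5 of 12 ligands were higher and 3 lower in CD11b+ cDC, and 8 of 15 higher and 1 lower in CD8a+ cDC. Over all genes 16.9% were higher and 22.6% lower in CD11b+ cDC and 41.7% and 13.6% in CD8a+ cDC, and in the latter the share of calls that were higher went from 75.4% to 49.1% with a common median. The split of the ligands in CD8a+ cDC goes the way of all genes. Vcam1 rose by 2.18 ± 0.13 and 2.50 ± 0.13. Icam1, the ligand of LFA-1, rose by 1.36 ± 0.11 in CD8a+ cDC, Tgfb1 differed by -1.40 ± 0.14 there, and Cdh1 by -2.21 ± 0.25 in CD11b+ cDC. Of other chains in CD11b+ cDC, Itgad (-0.67 ± 0.12), Itga2b (-0.53 ± 0.10) and Itgb3 (-0.46 ± 0.08) fell. Itgb8 rose (0.65 ± 0.21), a call lost without R848 replicate 1 or 3. A fit of the CD11b+ arrays alone lost it too (adjusted p = 0.0650), as did the replicate block (adjusted p = 0.145). In CD8a+ cDC Itga1 fell (-0.73 ± 0.16), and Itgad (0.30 ± 0.12) and Itgb6 (0.26 ± 0.08) were called higher as deposited but not with a common median or cyclic loess. Itgad was also lost without R848 replicate 1, 3 or 5 or untreated replicate 1 or 2. Within the R848 set Itga3 (0.52 ± 0.15) was higher and Itga5 (-0.71 ± 0.20) lower in CD8a+ than in CD11b+ cDC, and both calls were lost without CD11b+ R848 replicate 2 or 3, that of Itga3 also without CD11b+ R848 replicate 1 or CD8a+ R848 replicate 3 or 5. The R848 differences of the subsets differed for Itga1 (-1.05 ± 0.23) and Itgad (0.97 ± 0.17), and for Itga2b (0.41 ± 0.15) as deposited but not with a common median (0.16), nor without CD11b+ R848 replicate 2 or 3, CD11b+ untreated replicate 1, 3 or 5, CD8a+ R848 replicate 2 or 5, or CD8a+ untreated replicate 1 or 2.

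Adaptors and signalling genes, which set whether an integrin is active, gave 7 higher and 6 lower of 24 in LysoMac against CD11b+ and DN cDC, beside 30.5% of all genes called. Cytip, which binds cytohesin-1, an activator of beta2 integrins, was lower by 4.56 ± 0.12, and Cyth1, cytohesin-1 itself, higher by 2.00 ± 0.12. With R848, 2 were higher and 11 lower of 24 in CD11b+ cDC and 7 and 9 of 24 in CD8a+ cDC, beside 39.5% and 55.2% of all genes called and with medians of -0.39 and -0.08. Cyth1 rose in both (1.19 ± 0.16 and 1.53 ± 0.16), and Fermt3, the kindlin of blood cells, fell in CD11b+ cDC (-0.98 ± 0.21). Within the R848 set 9 of 30 were lower and 2 higher in CD8a+ cDC, beside 12.5% of all genes called, among them the kinases Fgr (-2.28 ± 0.20) and Syk (-2.15 ± 0.16), which signal from beta2 integrins.

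Genes upstream of CD103 moved in both directions. Of 9 measured, 3 rose and 5 fell with R848 in CD11b+ cDC, and 1 rose and 6 fell in CD8a+ cDC, beside 39.5% and 55.2% of all genes called. Aldh1a2, an enzyme that makes retinoic acid, rose by 2.09 ± 0.17 and 2.59 ± 0.17, to 8.67 to 9.03 and 10.34 to 10.74. Runx3, a transcription factor known to act on Itgae in T cells, differed by -2.01 ± 0.19 and -1.08 ± 0.19, and Rara, a retinoic acid receptor, by -1.25 ± 0.14 and -1.68 ± 0.14. In LysoMac 4 of 9 were higher and 4 lower than in CD11b+ and DN cDC, with Aldh1a2 at -2.14 ± 0.13 and Tgfbr1, a TGF-beta receptor, at 1.81 ± 0.16, beside 30.5% of all genes called. In the row match, F11r in both untreated sets and Icam1, Tgfb1, Madcam1 and Aldh1a2 in that of untreated CD8a+ cDC lie as near a gap as Itga4, so their identity there is as uncertain.

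For the members whose group means spanned at least 2 log2 units, the most alike of 13962 other genes over the 25 arrays were found by Pearson r. For Itgae they were Arhgap26 (0.975), Ffar4 (0.967) and Pld4 (0.965). For Itga4 they were P2ry10 (0.985), Cytip (0.982) and Nr4a3 (0.976), and for Itgb7 Atp8b4 (0.967), Trerf1 (0.950) and Nr4a1 (0.949). Itgam was closest to Morrbid (0.962), Tent5a (0.946) and Plaur (0.944), and Itgax to Hcls1 (0.978), Spint1 (0.966) and Ifngr1 (0.964). Itga8 was closest to Fgd6 (0.971), Itm2a (0.968) and Cxcr3 (0.967), values that rest on the 3 untreated CD8a+ arrays. All describe 7 groups in 3 sets and have no test.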

How the data were processed

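RNA of sorted Peyer's patch cells was amplified from 2 to 20 ng and hybridised to Affymetrix Mouse Gene ST arrays, per the labels' protocols. The authors deposited log2 signals made by RMA in Affymetrix Expression Console 1.4.1, per the submitters' processing notes. No source used here gives whether all arrays were normalized together. The number of arrays, 25, limits the precision.

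Row names fitted only the 8 R848 arrays: over 777 genes with several transcript clusters, 2 clusters of a gene correlated at 0.782 there, against 0.113 and 0.0547 in the other sets. Rows of those sets were aligned to the R848 rows by dynamic programming on mean levels that keeps row order. Of 28939 rows, 22654 and 22519 were accepted (at least 2 rows from a gap, neighbour correlation of at least 0.6). The clusters then correlated at 0.805 and 0.762. The distance of 2 rows was set after a first run had been seen. Because mean levels of untreated and R848 arrays were matched, rows with small R848 differences can be favoured. On data simulated from the R848 arrays alone, with 500 rows taken out and put in, no more than 0.462% of the accepted rows were paired wrongly. At least 83.4% of rows were accepted there, against 78.3% and 77.8% in the real match. The real match joins untreated to R848 arrays, which differ in many genes, so that error rate need not hold for it.

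Genes came from rows with 1 symbol. limma 3.58.1 (R 4.3.3; lmFit, eBayes) fitted group means over all 25 arrays, with Benjamini-Hochberg adjustment over all genes tested and a threshold of 0.05. Tested on simulated data, it recovered 94 and 97 of 100 genes changed 2-fold and 4-fold in CD8a+ against CD11b+ cDC after R848. In TIM-4+ against TIM-4- LysoMac it recovered 92 and 99 of 100. There were 13 and 9 false calls in these comparisons. The simulated noise was independent between arrays, without set differences or row mismatches, so the effect of those was not tested. No filter on low values was set.

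By rule all members are named, other integrin chains where called, and of each further list at most the 4 genes with the largest called difference in a comparison. The members and lists were chosen with earlier results of these data known. Alternatives were a common median, cyclic loess, leaving out dim genes, a fit of the compared groups alone, the replicate number as a block, the mean over transcript clusters, a stricter row match, each array left out in turn and, added after the data were seen, CD8a+ R848 replicates 4 and 5 left out together.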

Additional observations from a re-analysis of the deposited data

Results flagged for a closer look

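In 6 members the R848 difference itself differed between the cDC subsets in a test of that difference (limma, CD8a+ minus CD11b+ cDC, log2). It was -2.99 for Itga8, -1.68 for Itgal, -1.62 for Itgae, -1.61 for Itgax, -1.26 for Itgav and 3.23 for Itgam. The contrast uses all 3 array sets, which cannot be told apart from subset and treatment. For Itgam in CD8a+ cDC and Itga8 in CD11b+ cDC the untreated level was already below the array medians. Among 19 groups of member values with more than 3 arrays, no array stood apart from the rest, where chance marks about 5% of groups.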

How the results depend on the processing

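No called difference of a member changed direction under the alternatives run. A result counts as kept where it was called in both fits or in neither. Leaving out CD8a+ R848 replicates 4 and 5 kept the outcome in 28 of 28 member results. The stricter row match kept 66 of 66, but it drops doubtful rows and does not test them. Itga4 in both untreated sets and Itgb7 and Itgal in untreated CD8a+ cDC failed the stricter rule and have no value there. The mean over transcript clusters kept 82 of 82, but each member has only 1 row, so its values could not change. With 1 array left out, 746 of 773 kept the outcome, 17 lost a call and 10 gained a call. The outcome was kept in 77 of 81 with cyclic loess and in 78 of 82 with a common median. With the compared groups alone it was kept in 78 of 82, and without dim genes in 62 of 64. Without dim genes, which leaves fewer genes to test, 3351 genes were called for untreated CD8a+ against CD11b+ cDC, 351 for DN against CD11b+ cDC, 4106 for LysoMac against CD8a+ cDC, 4029 and 4324 for R848 in CD11b+ and CD8a+ cDC and 2325 for the difference of those responses, and 1 member (of the 2) for TIM-4. The stricter match, also with fewer genes, called 4147 for untreated CD8a+ against CD11b+ cDC, 4812 genes and 4 members for LysoMac against CD8a+ cDC, 5 members for R848 in CD8a+ cDC and 2827 genes for the difference of responses. Cyclic loess called 1647 genes for CD8a+ against CD11b+ cDC after R848 and 5615 for R848 in CD8a+ cDC, and a common median 2781 for the difference of responses; the cause was not tested. With the compared groups alone, which uses fewer samples, 313 genes were called for DN and 25 for TIM-4. In LysoMac against CD8a+ cDC, Itga2b turned to -0.065 with loess and -0.027 with a common median, and Itgb6 to -0.060 with the latter.

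The scaling moved the share of calls that were higher, given as deposited, with a common median and with loess: 17.4%, 60.4% and 49.8% for untreated CD8a+ against CD11b+ cDC, 75.3%, 36.3% and 51.8% for LysoMac against CD8a+ cDC, 60.7%, 42.4% and 65.1% for DN, 42.7%, 55.8% and 51.5% for R848 in CD11b+ cDC, 75.4%, 49.1% and 50.8% in CD8a+ cDC, and 83.1%, 44.0% and 48.3% for the difference of responses.

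Same-numbered arrays did not correlate above 0.1 in every pair for any 2 groups, so replicate numbers were not taken as pairing. That rule cannot exclude pairing. For CD11b+ with DN cDC and for DN cDC with TIM-4- LysoMac, 3 of 3 arrays correlated best with the array of their own number. The count was 2 of 3 between the TIM-4 groups and 0 of 3 for CD11b+ with untreated CD8a+ cDC. With the replicate number as a block, 73 of 82 member results kept their outcome, called or not. The blocked fit called 1517 genes for CD8a+ against CD11b+ cDC after R848 and 224 genes and 1 member for DN. For TIM-4 it called 9 genes and 0 members (adjusted p = 0.0515 for Itgam and 0.0800 for Itga6, limma). For DN, Itga6 (0.87, adjusted p = 0.0533) and Itgb7 (0.0933) no longer passed, for R848 in CD11b+ cDC Itgal (0.0779) and for CD8a+ against CD11b+ cDC after R848 Itgb2 (0.0968). Itgae no longer passed for the difference of responses (-1.29, adjusted p = 0.0517).

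With 1 array left out, 1778 to 2347 genes and 2 to 5 members were called for CD8a+ against CD11b+ cDC after R848, and 40 (without TIM-4- LysoMac replicate 1) to 66 genes for TIM-4.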
